A study of Arabidopsis thaliana with 12 samples.

Results

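The effect of cycloheximide (CHX) was measured in Arabidopsis root protoplasts that had also been given dexamethasone (DEX). The comparison set the 3 arrays of cells with DEX and CHX against the 3 arrays of cells with DEX alone, 6 of the 12 arrays of the series, and covered 22746 probe sets, all those on the array except its 64 controls. Protoplasts are cells freed from their walls by enzymes; these came from roots of the ecotype Columbia and carried an ABI3-GR construct. Both groups had the construct and 10 µM DEX, which lets the fusion protein into the nucleus, and they differed by 35 µM CHX. The other 6 arrays, 3 with CHX alone and 3 with neither compound, held the same construct without DEX. Their changes are set out in the closing comparison. They also enter the fit, its estimate of the spread and the choice of probe set for each gene. The labels give neither the promoter of the construct, the share of cells that took it up, nor the length of each treatment, and no array of cells without the construct was used here, so CHX was measured only in cells that had been through wall removal and transformation. Whether replicates came from separate preparations is not stated, so a p-value here speaks of the spread between 3 labelled samples, which may be technical.

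CHX stalls cytosolic ribosomes during elongation, so proteins that turn over quickly are lost and messages can no longer be translated into new protein. In many eukaryotic cells, messages of rapidly induced genes are known to pile up under such a block, a behaviour called superinduction. ABI3 is a transcription factor of the B3 family that switches on genes of seed maturation, and the GR part of the fusion is the hormone-binding region of a glucocorticoid receptor, which holds the protein outside the nucleus until DEX binds. A CHX arm is included in such designs so that genes that respond to the factor without newly made proteins can be picked out; the comparison here asks what CHX itself did to the transcripts of those cells.

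Values are log2 intensities as deposited, floored at 16 (4 on the log2 scale), and changes are those fitted by limma over all 12 arrays with 3 arrays a group. P-values were adjusted by the Benjamini-Hochberg method across the 22746 probe sets, and a gene passed at an adjusted p under 0.05. The arrays limit the precision: the median standard error of a log2 change was 0.45. The median intensity of an array was 168.6, 220.8 and 175.4 with DEX and 115.5, 166.4 and 122.7 with both compounds, and replicate 2 was the brightest array in each group. Across probe sets, arrays correlated at 0.919 to 0.937 within DEX, at 0.893 to 0.925 within DEX and CHX, and at 0.769 to 0.808 between those groups. The ratio of the 3' to the 5' ubiquitin control, which rises with RNA breakage or short labelling products, was 6.25, 5.97 and 6.78 with DEX and 6.51, 7.41 and 8.01 with both, ranges that overlap; its part in the results was not tested.

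CHX changed 7045 probe sets past the threshold, 31% of those tested: 2411 were higher (10.6%) and 4634 lower (20.4%). A total of 1951 rose and 3927 fell by 2-fold or more, 925 rose and 1417 fell by 4-fold or more, and 163 rose and 49 fell by 16-fold or more. The arrays of the groups did not overlap for 3008 probe sets higher with CHX (13.2%) and 6244 lower (27.5%), and 6884 probe sets were both called and apart (30.3%). The excess of falls depended on scaling. Over all probe sets the median change was -0.46 on the log2 scale as deposited, 0.03 with each array centred on its median and -0.04 after quantile normalization. Of the probe sets called, 34.2% were higher as deposited, 59.0% after centring (3252 higher, 2261 lower) and 48.5% after quantile normalization (3214 higher, 3413 lower). A fall smaller than about this shift is therefore a statement about the scale of the array as much as about the gene. In a fit of only the 6 arrays compared, 2099 were higher and 3684 lower.

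**Figure D1:**
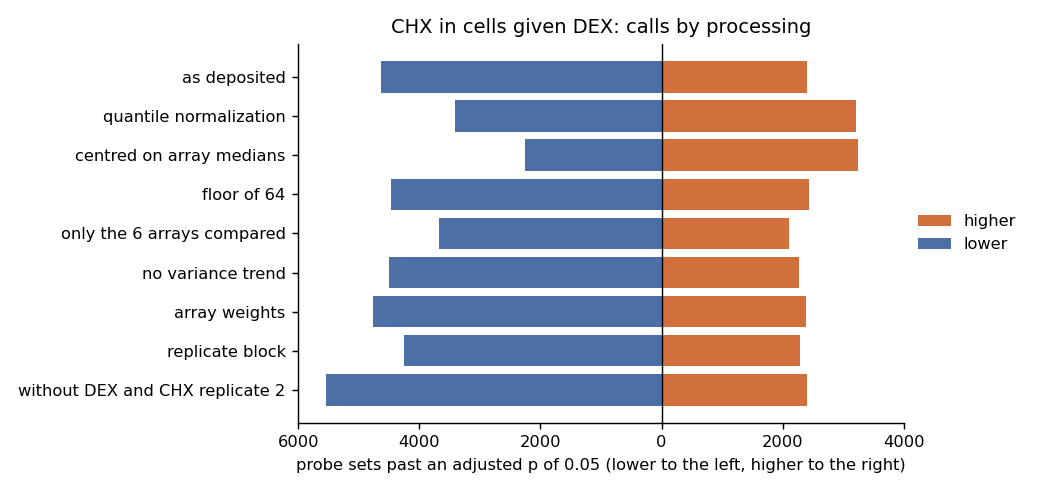
Probe sets past an adjusted p of 0.05 for CHX in cells given DEX, under 9 ways of processing the arrays; bars to the right count probe sets higher with CHX and bars to the left those lower. Lower calls outnumber higher ones as deposited (4634 against 2411), and the order turns with arrays centred on their medians (2261 against 3252).

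With 1 probe set standing for each of 13355 named genes, 3688 genes passed (27.6%), 1292 higher (9.67%) and 2396 lower (17.9%). These shares are the background against which the gene groups below are read. Members called measured are those that the annotation names. It gives no gene for 8730 probe sets, and 48 of 96 loci listed for 40S proteins and 9 of 51 for proteasome subunits were named. Members without a name may have moved otherwise. The 15 largest rises and the 15 largest falls were taken among the genes above the floor on all 6 arrays whose groups did not overlap. All 30 kept their direction and their call in each of 22 alternative ways of processing.

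AT5G03350, a gene of the legume lectin family, read 4.11, 4.62 and 5.56 on the arrays with DEX and 11.05, 11.74 and 12.13 on those with DEX and CHX. That is a log2 change of 6.87 (SE 0.52; limma adjusted p = 5.02e-07), the largest rise under the rule, from a signal near the floor to a strong one. WRKY53, which encodes a WRKY transcription factor of leaf senescence and defence, went from 9.26, 8.95 and 8.78 to 14.59, 14.61 and 14.84 (log2 change 5.69, SE 0.25; limma adjusted p = 6.28e-09). AT1G19210, a gene of the ERF/DREB family of transcription factors, read 8.47, 8.61 and 8.71 with DEX and 14.25, 14.21 and 14.77 with both (log2 change 5.81, SE 0.22; limma adjusted p = 3.42e-09). In each of these genes the lowest array with CHX stood more than 5 log2 units above the highest without it.

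AT1G07160, which encodes a protein phosphatase of the PP2C family, was at 8.69, 8.07 and 8.10 with DEX and at 13.94, 13.93 and 14.09 with both (log2 change 5.70, SE 0.19; limma adjusted p = 1.45e-09). The AT2G17660 gene, of the RIN4/NOI family whose founding member is guarded by immune receptors, read 9.01, 8.41 and 8.41 against 13.83, 14.10 and 14.53 (log2 change 5.54, SE 0.23; limma adjusted p = 3.69e-09). BGLU31, a beta-glucosidase gene, read 6.02, 7.22 and 6.43 against 11.97, 12.28 and 12.50 (log2 change 5.69, SE 0.54; limma adjusted p = 3.29e-06). Its groups were as far apart, with a larger fitted error. AT5G07870, a gene of the BAHD acyltransferase family, went from a mean of 6.72 ± 0.25 (SD, n = 3) to 12.29 ± 0.20 (SD, n = 3). AT5G28630, which encodes a glycine-rich protein, went from 8.46 ± 0.83 (SD, n = 3) to 14.42 ± 0.22 (SD, n = 3).

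The remaining rises of the 15 lay between 5.56 and 6.43 on the log2 scale. AT1G51915 rose 86.3-fold with little spread with CHX, at 13.14, 13.37 and 13.31. AT1G55450, of a methyltransferase family, rose 47.1-fold to 14.07, 14.47 and 14.03. AT5G52760, whose product has a heavy-metal-associated domain, rose 48.3-fold and AT2G25735 52.1-fold. AT2G37810, AT3G48650 and AT2G18210 rose 55.5-fold, 49.3-fold and 47.5-fold. After centring, the change of every one of the 15 was larger, since centring adds the same shift to all genes. After quantile normalization most of the 15 changes were smaller than as deposited and the others larger. The deposited sizes are therefore not a lower limit.

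AT1G62660, of the vacuolar invertase family that splits sucrose, was at 12.26, 12.05 and 12.08 with DEX and at 6.88, 6.71 and 5.82 with both (log2 change -5.66, SE 0.26; limma adjusted p = 7.98e-09). AT4G01610, a cathepsin B-like protease gene, went from 14.20, 13.68 and 14.23 to 8.68, 9.34 and 9.48 (log2 change -4.87, SE 0.23; limma adjusted p = 1.16e-08). OSM34, which encodes an osmotin-like protein of the defence and osmotic stress response, read 13.58, 13.14 and 13.33 against 8.57, 8.86 and 8.33 (log2 change -4.76, SE 0.19; limma adjusted p = 3.69e-09). No array of one group came within 4 log2 units of the other in these 3 genes.

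PYK10, the beta-glucosidase that fills the ER bodies of root cells, read 12.70, 12.97 and 13.05 with DEX and 8.20, 8.37 and 8.74 with both (log2 change -4.47, SE 0.18; limma adjusted p = 3.54e-09). AT2G37130, a class III peroxidase gene, read 11.93, 12.42 and 12.01 against 6.93, 7.37 and 7.73 (log2 change -4.77, SE 0.34; limma adjusted p = 2.71e-07). Both genes lay far apart between the groups. AT5G54660, of the HSP20-like chaperone family, fell 16.2-fold from 11.72 ± 0.11 (SD, n = 3) to 7.70 ± 0.27 (SD, n = 3). PRN, which encodes a pirin, fell 15.3-fold from 9.78 ± 0.27 (SD, n = 3) to 5.84 ± 0.74 (SD, n = 3).

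Of the other falls, AT3G14280 fell 36.2-fold and AT5G43180 27.6-fold, and both were spread with CHX, at 6.51, 6.80 and 4.86 and at 7.13, 5.38 and 5.8. AT5G20700 fell 22.6-fold and AT5G16450 15.4-fold, again with arrays of both compounds close to the floor. AT1G25230, of the purple acid phosphatase family, fell 15.2-fold. AT1G62480, AT4G17840 and AT2G25625 fell 15.9-fold, 15.7-fold and 14.4-fold. Low signals with CHX are the less precise side of these folds: the SDs of the 15 falls ran up to 1.5 with CHX and up to 0.43 without.

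**Figure D2:**
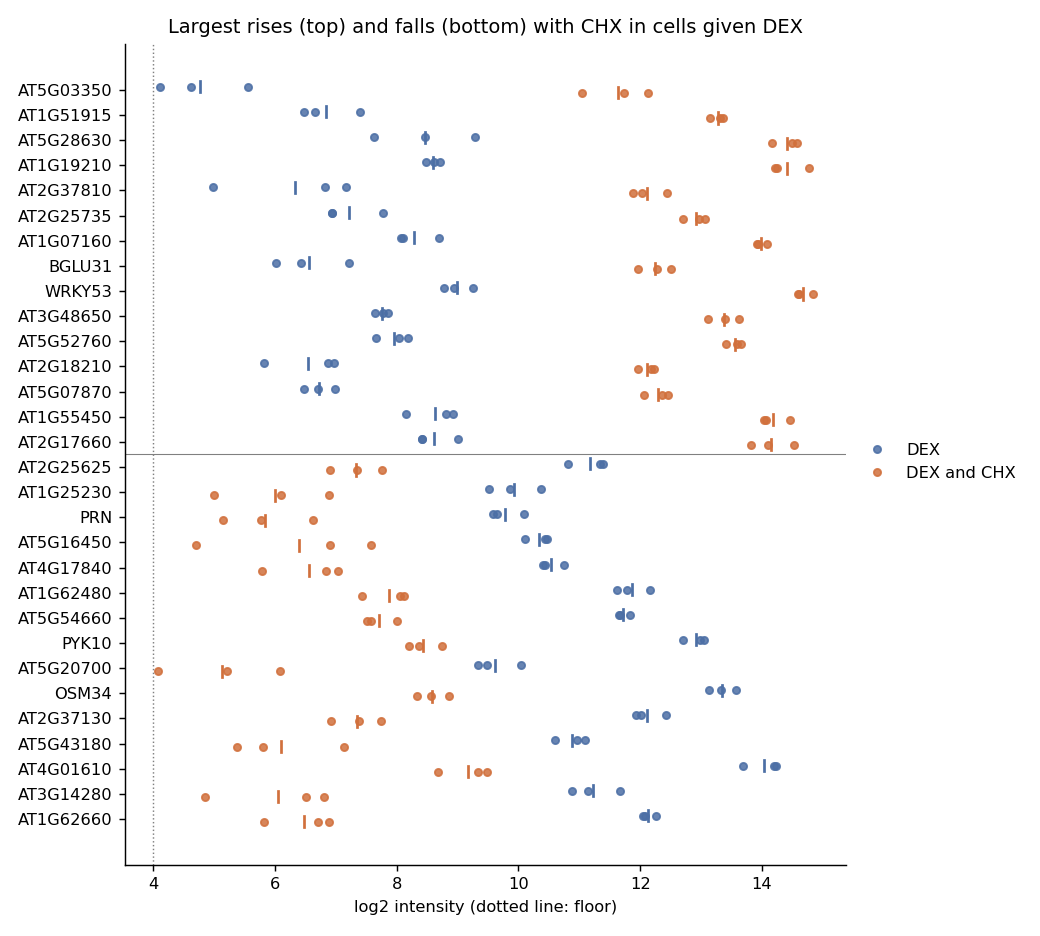
The 15 largest rises (top) and 15 largest falls (bottom) with CHX in cells given DEX, as log2 intensity on each of 3 arrays a group (points) with the group mean (tick); the dotted line at 4 is the floor. No gene shown overlaps between groups, and arrays with CHX spread widest where the signal nears the floor, as for AT5G16450 (6.91, 7.57 and 4.71).

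Genes wholly at the floor in one group have only a bound. With both compounds, 60 genes past the threshold were at the floor on all 3 arrays, and 5 were so with DEX alone. AT1G55690, a Sec14-like lipid transfer gene, read 8.02, 7.81 and 8.20 with DEX and was at the floor on each array with CHX, at least 16.1-fold lower (limma adjusted p = 2.36e-05). AT3G50400, a GDSL lipase gene, was at least 13.8-fold lower (limma adjusted p = 0.000179), AT4G36530 at least 9.1-fold, AT5G10970 at least 7.1-fold, and LSH5, of a family of plant-specific nuclear proteins, at least 7.0-fold. In the other direction AT1G31540 was at the floor with DEX and read 7.37, 7.24 and 5.29 with both, at least 6.2-fold higher (limma adjusted p = 0.00607). AT3G28780, AT4G22640, AT1G46696 and AT5G06430 were at least 5.7-fold, 4.5-fold, 4.1-fold and 2.9-fold higher, and all 5 lost the call in at least 1 alternative. More genes were thus lost to the floor than gained from it, on arrays with 6.30% to 15.8% of probe sets at the floor with CHX and 2.84% to 8.71% without.

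Genes for proteins of the cytosolic ribosome fell. Of 48 measured genes for 40S subunit proteins 36 were lower and none higher, with a median change of -1.74, and of 82 for 60S proteins 61 were lower and 1 higher, with a median of -1.72; the median of all genes was -0.45. The direction held under both other scalings: 26 and 52 genes were lower after centring (medians -1.25 and -1.23) and 28 and 56 after quantile normalization. The mean log2 level of the 40S genes was 8.99, 9.24 and 9.15 on the arrays with DEX and 7.30, 7.82 and 7.53 on those with both; that of the 60S genes was 9.52, 9.56 and 9.55 against 7.81, 8.03 and 7.70. Of the 130 genes together, 124 had a change below 0 (114 after centring). Many are members of small families of near-identical copies, and short probes may read more than one copy.

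The falls were steady where the signal was good. Among the 31 genes with a mean of 10 or more over the 12 arrays, all had a change below 0 and 29 were called lower. The median was -2.19 over 9 genes of the 40S subunit and -2.0 over 22 of the 60S subunit. AT5G20290, a 40S gene, read 13.59, 13.40 and 13.80 with DEX and 11.80, 11.54 and 11.18 with both (log2 change -2.09, SE 0.20). AT3G60245, a 60S gene, read 13.47, 13.32 and 13.45 against 11.54, 11.30 and 11.29 (log2 change -2.04, SE 0.14), and AT4G27090 read 13.44, 13.20 and 13.52 against 11.16, 11.27 and 11.02 (log2 change -2.23, SE 0.16). These strongly measured genes, singled out for their level in the list, fell 4.1-fold to 4.7-fold as deposited. In the order given, their changes were -1.60, -1.55 and -1.75 after centring. After quantile normalization they were -2.51, -2.45 and -2.60.

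The 4 genes of each subunit with the largest falls past the threshold included some near the floor. AT1G52300 of the 60S subunit was well above it, at 12.70, 12.57 and 12.84 with DEX and 9.07, 9.97 and 9.52 with both (log2 change -3.18, SE 0.19; limma adjusted p = 7.46e-08). AT3G56340 of the 40S subunit read 10.22, 9.96 and 10.11 against 7.32, 7.06 and 7.18 (log2 change -2.91, SE 0.20; limma adjusted p = 2.25e-07). AT1G74270 had the deepest fitted fall, -4.88, but it was at the floor on replicates 2 and 3 with CHX, so its size depends on the floor; AT3G11510, at -4.01, was there on replicates 1 and 3, AT3G16080, at -3.78, on replicate 3, and AT4G25740, at -3.34, on replicate 1. AT5G39850 and AT2G37190, at -2.99 and -3.26, were above the floor but near it on some arrays with both compounds. They read 4.85, 7.78 and 4.87, and 4.41, 6.31 and 6.02, so their sizes are imprecise too. The exception was AT2G32220, a 60S gene that rose from 7.15, 7.66 and 7.56 to 8.65, 9.21 and 8.79 (log2 change 1.43, SE 0.26; limma adjusted p = 0.000996).

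Genes for the nucleolar factors that build ribosomes went mostly the other way. Of 61 measured genes for ribosome assembly, rRNA processing and nucleolar proteins, 23 were higher and 4 lower, with a median of 0.36 (0.84 after centring, with 27 higher and 2 lower; 27 and 3 after quantile normalization). Their mean log2 level was 8.10, 8.21 and 8.16 with DEX and 8.5, 8.37 and 8.40 with both. AT1G79150, whose yeast relative Noc3 acts in large subunit assembly, went from 7.61, 7.44 and 7.64 to 9.34, 9.60 and 9.98 (log2 change 2.07, SE 0.23; limma adjusted p = 1.46e-05). AT5G38720 read 8.34, 8.59 and 7.89 against 10.39, 9.62 and 10.22 (log2 change 1.80, SE 0.26; limma adjusted p = 0.000122). For both the groups stood well apart.

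RBL, the REBELOTE gene of the Noc2 family, read 6.67, 7.55 and 8.08 with DEX and 9.12, 9.14 and 9.27 with both (log2 change 1.74, SE 0.40; limma adjusted p = 0.00498), and AT4G04940, related to a yeast protein of the small subunit processome, had a log2 change of 1.86 (SE 0.33; limma adjusted p = 0.000815). IMP4, a U3 snoRNP protein gene, had a log2 change of 1.57 and RRP41, a core subunit of the RNA exosome, one of 1.18, both past the threshold. IMP4 and RRP41 lie outside the naming rule. Members that fell included AT3G22660, a relative of the yeast 60S assembly factor Ebp2, from 10.85, 11.08 and 11.09 to 8.46, 10.12 and 8.83 (log2 change -1.87, SE 0.32; limma adjusted p = 0.000586), and AT1G23280, a relative of yeast Mak16, from 7.61, 7.95 and 7.23 to 5.63, 6.24 and 4.0 (log2 change -2.31, SE 0.55; limma adjusted p = 0.00573). Of the 31 genes with a mean of 8 to 10 over all arrays 19 were higher, against 2 of the 23 with a mean under 8. These means include the arrays with CHX, so a gene that rises is placed higher by its own rise. The split therefore depends in part on the grouping, and whether rises go with the starting signal was not tested.

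**Figure D3:**
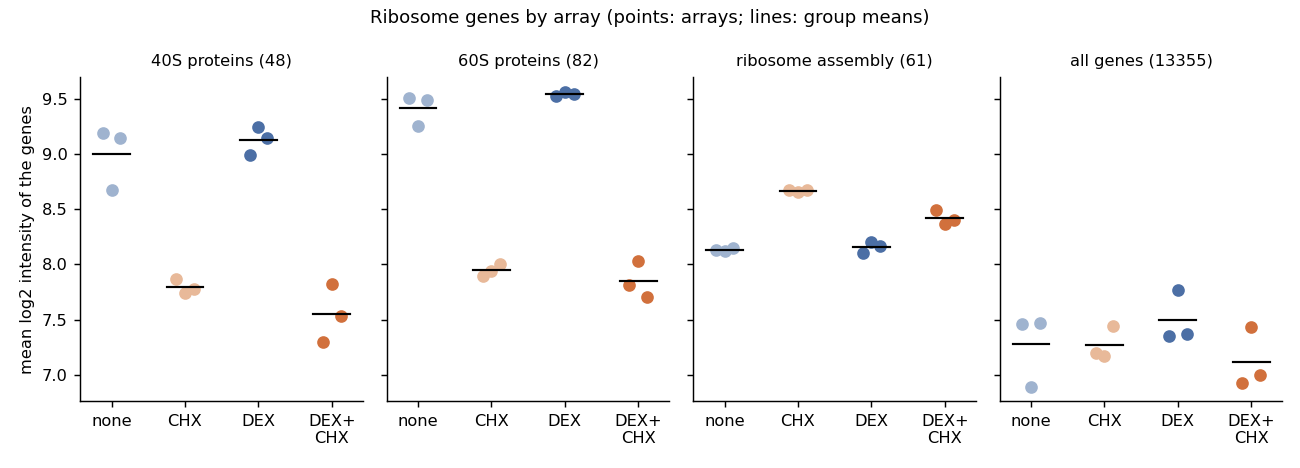
Mean log2 intensity over the genes of each list on every array (points), with the mean of 3 arrays a group (lines), for 48 genes of 40S proteins, 82 of 60S proteins, 61 of ribosome assembly and all 13355 genes; DEX and DEX+CHX are the groups compared, and none and CHX the cells without DEX. Ribosomal protein genes lie lower and assembly genes higher on every array with CHX than on the matching arrays without it, while the arrays of all genes overlap between groups.

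Other genes of protein synthesis and turnover followed the ribosomal proteins in part. Of 13 genes for translation initiation and elongation factors 5 were lower and 1 higher (median -0.72). AT5G19510, a subunit of elongation factor 1B, had a log2 change of -1.86 (SE 0.36; limma adjusted p = 0.0015) and EIF4A-2, the RNA helicase of the cap-binding complex, one of -1.50 (SE 0.23; limma adjusted p = 0.000245), from 11.95, 11.90 and 12.29 to 10.89, 10.06 and 10.70. After centring 2 of the 13 were lower and 1 higher. Of 9 proteasome subunit genes 5 were lower (median -0.94), among them AT5G23540, from 12.64, 12.30 and 12.44 to 11.70, 11.34 and 11.66 (log2 change -0.89, SE 0.15; limma adjusted p = 0.000552); after quantile normalization 3 were lower, and after centring each of the 5 missed the threshold in limma. Of 6 vacuolar ATPase subunit genes, whose products pump protons into the vacuole, 5 were lower (median -1.59; 3 after centring), with AT3G58730 at 9.85, 9.62 and 10.08 against 7.63, 7.59 and 8.60 (log2 change -1.91, SE 0.29; limma adjusted p = 0.000201). Of 7 tubulin genes 3 were lower (median -1.33; 2 after centring), with TUA6 and TUA1 at log2 changes of -2.06 and -1.72.

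Genes known for a quick response to wounding, elicitors or touch rose as a block. Of 31 such genes 30 were higher, against 9.67% of all genes, with a median of 2.57 and a range of 1.40 to 6.22; after centring and after quantile normalization all 31 were higher. The list was drawn up with earlier results of these data known, so its count is not independent evidence of its direction. Its mean log2 level was 9.69, 9.59 and 9.88 on the arrays with DEX and 12.62, 12.72 and 12.91 on those with both. The member that missed the threshold, AT1G35210, read 6.92, 7.30 and 8.60 against 8.89, 9.53 and 9.83 (log2 change 1.81, SE 0.66; limma adjusted p = 0.0529).

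AT1G22810, of the ERF/DREB family, had the largest change of the list. It read 5.75, 4.0 and 5.52 with DEX, where replicate 2 is at the floor, and 10.97, 11.49 and 11.46 with both (log2 change 6.22, SE 0.44; limma adjusted p = 2.62e-07). ORA47, an ERF transcription factor gene of the jasmonate response, went from 6.35, 7.11 and 7.53 to 11.98, 12.34 and 12.01 (log2 change 5.11, SE 0.31; limma adjusted p = 7.18e-08), and STZ, a zinc finger repressor of the salt and wound response also known as ZAT10, from 12.02, 11.70 and 11.87 to 15.22, 15.28 and 15.60 (log2 change 3.5, SE 0.18; limma adjusted p = 1.86e-08). AT2G28200, the other of 2 ZAT-type genes named among 6 loci listed, fell from 9.81, 9.66 and 8.79 to 7.28, 7.48 and 8.15 (log2 change -1.79, SE 0.30; limma adjusted p = 0.000518). Of 6 measured WRKY genes 3 rose and none fell: beside WRKY53, WRKY6 had a log2 change of 1.61 (SE 0.18; limma adjusted p = 1.49e-05) and WRKY22 one of 0.88 (SE 0.16; limma adjusted p = 0.00107).

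Some genes for calcium sensors and ubiquitin ligases rose. Of 7 calmodulin-like genes 4 rose and 3 did not pass, with CML42 and CML43 at log2 changes of -1.10 and -1.09. CML23 read 9.56, 9.36 and 10.03 with DEX and 12.48, 13.26 and 13.33 with both (log2 change 3.37, SE 0.25; limma adjusted p = 4.26e-07), and CML38 and CML37, a closely related pair, had log2 changes of 3.09 and 2.91. CML41 had one of 1.36 (SE 0.45; limma adjusted p = 0.0361) and lost its call in 6 of the 22 alternatives. Of 13 U-box and ATL ubiquitin ligase genes 4 rose, all of them U-box genes, and 9 did not pass; the median was -0.14 (0.35 after centring). PUB24 read 8.74, 8.20 and 8.93 against 11.61, 11.71 and 11.49 (log2 change 2.98, SE 0.22; limma adjusted p = 3.52e-07). PUB23 and PUB22, which dampen immune signalling together with PUB24, had log2 changes of 2.63 and 2.17, and PUB19 one of 2.28.

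Early auxin response genes split. Of 12 measured Aux/IAA, GH3 and SAUR genes 4 were higher and 3 lower. IAA30, a repressor of auxin signalling, went from 7.58, 8.18 and 6.84 to 12.09, 11.57 and 12.04 (log2 change 4.36, SE 0.34; limma adjusted p = 7.17e-07). GH3.3, an enzyme that joins auxin to amino acids, went from 12.13, 11.83 and 12.11 to 14.92, 14.91 and 15.38 (log2 change 3.05, SE 0.19; limma adjusted p = 9.04e-08), with GH3.1 at a change of 3.85. GH3.17 of the same family went the other way, from 12.14, 11.34 and 11.98 to 9.27, 9.77 and 8.74 (log2 change -2.56, SE 0.27; limma adjusted p = 9.91e-06), and the repressor gene IAA18 had a change of -2.06 (SE 0.37; limma adjusted p = 0.00089). Members of one family thus moved in opposite directions in the same cells.

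Of 27 genes for expansins, XTHs, extensins and arabinogalactan proteins, which loosen or build the wall, 4 were higher and 4 lower, shares near those of all genes, and 19 did not pass. EXLA3, an expansin-like gene, went from 8.78, 8.85 and 8.68 to 13.52, 13.72 and 13.89 (log2 change 4.94, SE 0.16; limma adjusted p = 1.45e-09). XTH18, which encodes a xyloglucan-modifying enzyme, went from 11.58, 11.55 and 10.84 to 14.28, 14.83 and 15.36 (log2 change 3.5, SE 0.33; limma adjusted p = 3.45e-06), and its relative XTH19 had a change of 2.87. The expansin EXPA4 fell, from 11.74, 11.15 and 11.25 to 7.51, 8.31 and 7.95 (log2 change -3.46, SE 0.23; limma adjusted p = 1.4e-07), and EXLB1 had a change of -3.09. Both directions were thus found within the expansin superfamily.

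Class III peroxidases, secreted enzymes that oxidise wall phenolics and make or use hydrogen peroxide, had 7 of 53 genes higher and 8 lower (median -0.82, -0.33 after centring), also near the shares of all genes, and 38 did not pass. AT1G14550 rose from 9.24, 8.57 and 8.86 to 14.61, 14.33 and 14.30 (log2 change 5.53, SE 0.19; limma adjusted p = 1.45e-09) and AT5G06730 from 7.13, 7.30 and 6.75 to 10.48, 11.05 and 10.61 (log2 change 3.66, SE 0.36; limma adjusted p = 5.47e-06). AT4G36430 fell from 10.93, 10.65 and 10.75 to 8.18, 8.11 and 7.44 (log2 change -2.86, SE 0.24; limma adjusted p = 1.33e-06), beside AT2G37130 above. Of 61 genes for tau glutathione transferases and UDP-glycosyltransferases, the conjugating enzymes of detoxification, 9 were higher and 19 lower, and 10 and 10 after centring. UGT87A2 fell from 14.19, 14.27 and 14.20 to 12.32, 11.56 and 11.12 (log2 change -2.56, SE 0.30; limma adjusted p = 2.68e-05). UGT73D1 rose from 9.94, 9.91 and 9.76 to 12.37, 11.89 and 11.97 (log2 change 2.21, SE 0.18; limma adjusted p = 8.1e-07).

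Genes of protein folding moved both ways. Of 7 genes for ER chaperones and the unfolded protein response 2 were higher and 2 lower, with a median of -0.34 that went to 0.15 after centring. BZIP60, the transcription factor that is spliced when unfolded proteins build up in the ER, rose from 12.12, 12.05 and 12.44 to 14.07, 14.30 and 14.30 (log2 change 2.02, SE 0.17; limma adjusted p = 1.63e-06). ATERDJ3B, a co-chaperone of the ER, fell from 11.18, 10.70 and 11.10 to 9.26, 7.68 and 7.57 (log2 change -2.82, SE 0.39; limma adjusted p = 9.91e-05), and the calreticulin gene CRT1b had a change of -1.34. Of 5 cytosolic heat shock protein genes the HSP70 gene AT3G09440 fell (log2 change -1.94, SE 0.25; limma adjusted p = 4.95e-05) and 4 did not pass. Of 9 core histone genes 3 were lower, led by HTB4 at 12.52, 12.62 and 12.44 against 10.41, 10.70 and 10.30 (log2 change -2.06, SE 0.15; limma adjusted p = 4.1e-07); 2 were lower after centring, where the median went from -0.47 to 0.02.

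Organelle genomes, whose messages are read by ribosomes that CHX is known not to stop, had few genes past the threshold as deposited. Of 69 plastid-encoded genes 7 were lower and none higher, with a median of -0.39 close to the -0.45 of all genes, and 1 was lower after centring, where the median was 0.10. After quantile normalization 10 were lower and none higher, with a median of -0.26 against -0.01 for all genes. Of all 13355 genes, 1739 were lower and 1798 higher in that scaling, so the share of plastid genes lower was near that of all genes. With 1 array left out and no other scaling, the plastid median ran from -0.76 to -0.20. The largest called falls were those of psbF, with a log2 change of -1.58 (SE 0.32; limma adjusted p = 0.00214), matK with -1.25, psbD with -1.24 and rbcL with -1.04. Of 16 mitochondria-encoded genes 1 was called, nad1, higher at 12.65, 12.93 and 12.78 against 12.03, 12.31 and 12.13 (log2 change 0.63, SE 0.17; limma adjusted p = 0.0111); the median was -0.22, and 0.27 after centring, when 3 were higher; after quantile normalization nad1 had a change of 0.04 (limma adjusted p = 0.926), no gene of the 16 was called and the median was -0.05. The direction of both organelle medians therefore depends on the scaling and is not settled.

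Of 4 measured genes often used as a constant reference, 2 were lower and 2 did not pass. GAPC2, a cytosolic glyceraldehyde-phosphate dehydrogenase gene, read 12.17, 11.68 and 11.94 with DEX and 9.22, 9.08 and 9.51 with both (log2 change -2.66, SE 0.21; limma adjusted p = 8.44e-07), and was lower after centring and after quantile normalization too. The TIP41-like gene AT4G34270 had a change of -0.90 (SE 0.25; limma adjusted p = 0.0158) and lost its call in 5 of 22 alternatives, both other scalings included. AT2G28390 and the PEX4 gene did not pass, at -1.38 and -0.42. As a check of the labelled tissue, 3 of 24 root markers listed were named on the array: PYK10 was well measured, whereas EXPA7 and EXPA18, genes of root hair cells, read 5.50, 6.56 and 6.92 and 5.38, 6.96 and 4.0 with DEX, near the floor. The 8 leaf photosynthesis genes measured had means of 6.63 to 8.81 with DEX, and 3 of the 8 were lower with CHX, among them RCA, the activator of Rubisco, from 8.33, 8.79 and 8.18 to 6.71, 6.98 and 6.97. In whole-sample RNA, fewer cells of a type and less RNA per cell cannot be told apart, for these markers as for every gene above.

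**Figure D4:**
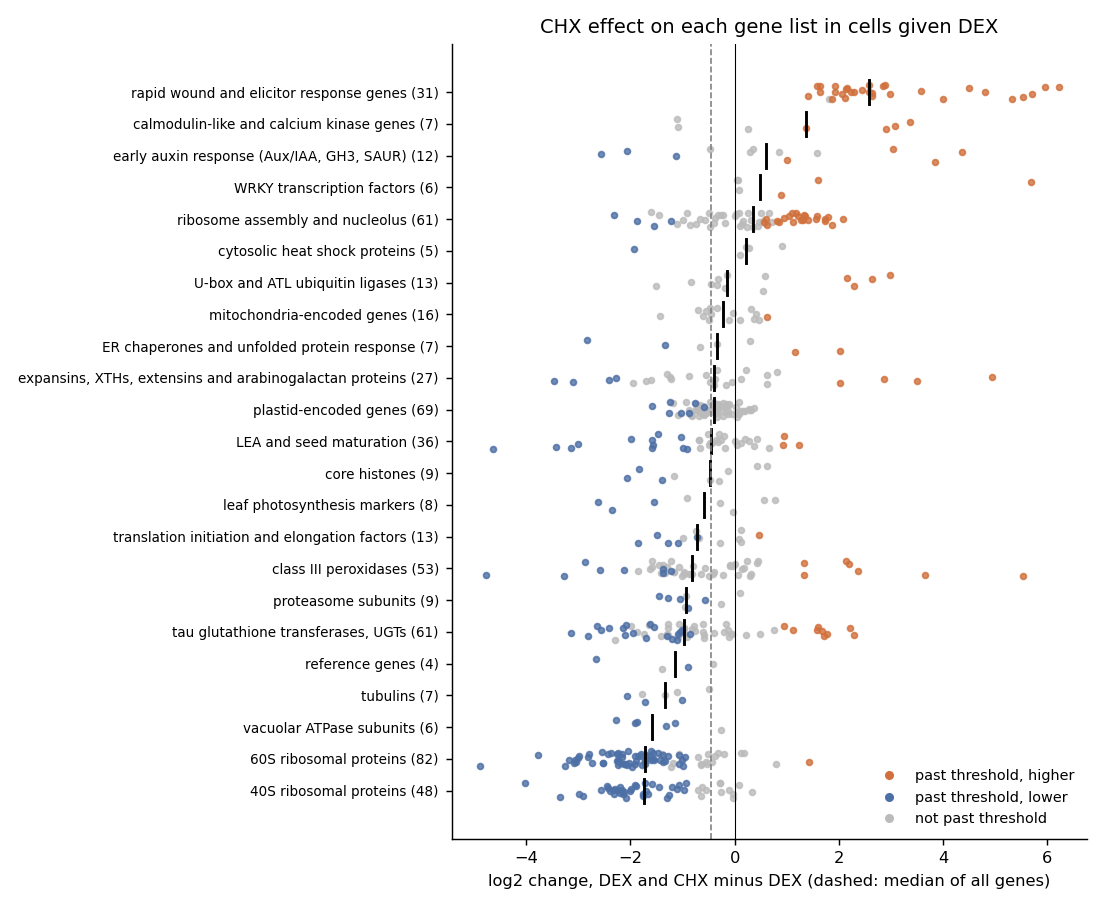
Log2 change with CHX in cells given DEX for each measured member (points) of 23 gene lists, with the number of genes in brackets; orange and blue points passed the threshold, bars mark list medians and the dashed line the median of all genes. The rapid wound and elicitor genes lie wholly to the right (median 2.57) and the ribosomal proteins almost wholly to the left (medians -1.74 and -1.72), while peroxidases and wall genes spread to both sides.

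The same contrast was then set beside that of the 6 arrays without DEX, with which it shares no array. There, CHX changed 6126 probe sets (26.9%), 2473 higher (10.9%) and 3653 lower (16.1%), with a median of -0.05. A total of 4974 probe sets were called in the same direction in both, 1980 higher and 2994 lower, which is 70.6% of the calls with DEX and 81.2% of those without; 14 were called in opposite directions. The fit on all 12 arrays gives both contrasts 1 estimate of the spread per probe set. In separate fits of 6 arrays each, 5783 and 6161 were called, 4444 of them in the same direction, 76.8% and 72.1% of the lists, and 8 in opposite directions. Over 22746 probe sets, which are not independent replicates and share an array type, the changes correlated at 0.758, a description with no test. Without DEX, 10.1% of all genes were higher and 13.5% lower. Of the 130 ribosomal protein genes 87 were lower in both, and all 31 rapid wound and elicitor genes were higher without DEX (median 2.49).

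The test of the difference between the contrasts called 1 probe set in limma (0.0044%), and 1814 had an unadjusted p under 0.05 (7.98%). The 1 called, 260716_at, is assigned to no gene by the annotation. It read 13.97, 13.87 and 14.11 with DEX and 10.75, 10.50 and 10.74 with DEX and CHX, against 13.39, 13.09 and 13.15 with neither and 7.51, 7.35 and 6.58 with CHX alone. CHX lowered it in both, by a log2 change of -3.32 with DEX and -6.07 without (difference 2.75, SE 0.30; limma adjusted p = 0.015). The call depended on single arrays: the count of differences was 0 without any 1 of the 3 arrays with neither compound, without replicate 1 or 2 of DEX or without replicate 1 of DEX and CHX, and 15 without replicate 1 of CHX alone, an array whose hybridisation controls read 214.9 against 7102 to 12904 on the other arrays.

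Seed maturation genes, the class that ABI3 is known to drive, were less lowered by CHX with DEX than without in most members, though no single difference passed. Of 36 measured genes for LEA proteins, oleosins, storage proteins and other seed proteins, 3 were higher and 12 lower with DEX (median -0.45, or 0.04 after centring, when 6 were lower, and -0.87 after quantile normalization, when 18 were), and 25 were lower and none higher without it (median -1.64). The mean log2 level over the list was 11.04, 10.79 and 10.70 with DEX and 10.11, 10.15 and 10.14 with DEX and CHX; without DEX it was 10.53, 10.54 and 10.62 with neither and 9.13, 8.94 and 8.92 with CHX. That seed genes differ in this way was known from earlier results of these data. The difference in the CHX effect was above 0 for 28 of 36 (median 0.98) and had an unadjusted p under 0.05 for 24, against 7.98% of all probe sets, and limma called 0 of them.

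Single seed genes showed several courses under CHX. AT1G54410, a small dehydrin gene, fell alike in both: 15.23, 14.71 and 15.44 with DEX went to 11.96, 11.08 and 12.07 with both (log2 change -3.43, SE 0.31; limma adjusted p = 2.43e-06), with a change of -3.47 without DEX. AT2G28490, a cupin storage protein gene, and AT4G39130, of the dehydrin family, had changes of -3.0 and -3.13 with DEX, and AT2G03850, a LEA gene at the floor on replicate 3 with both, one of -4.64. These genes fell with CHX in cells given DEX. AT2G42560, a LEA gene, read 15.50, 15.18 and 15.50 with DEX and 15.66, 15.03 and 15.88 with both, groups that overlap (log2 change 0.13, SE 0.26; limma adjusted p = 0.748), against 15.14, 15.30 and 15.22 with neither and 14.86, 14.46 and 14.06 with CHX alone.

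AT1G04560, of the AWPM-19 family of membrane proteins, was likewise level with DEX, at 12.65, 12.52 and 12.49 against 12.60, 12.34 and 12.78 with both, and fell without it, from 12.69, 12.76 and 12.57 to 11.45, 10.80 and 10.60 (log2 change -1.72); the difference of 1.73 missed the threshold (SE 0.29; limma adjusted p = 0.0974). AT3G54940, a papain-type protease gene, read 12.85, 12.38 and 12.37 with DEX and 11.71, 11.21 and 11.94 with both, and 11.56, 11.94 and 11.50 with neither and 8.63, 7.51 and 8.37 with CHX (changes -0.91 and -3.49; difference 2.58, SE 0.39; limma adjusted p = 0.0974). The arrays with CHX alone stood lowest in each of these genes. OLEO3, an oil body protein gene, took the opposite order: it read 8.27, 8.35 and 7.83 with DEX and 6.92, 5.64 and 7.15 with both (log2 change -1.58, SE 0.53; limma adjusted p = 0.0374), with a change of 0.49 without DEX, not past the threshold. AT2G42560, AT1G04560, AT3G54940 and OLEO3 lie outside the naming rule and were chosen with their values known.

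Of the 14 probe sets called in opposite directions by CHX, 6 were higher with DEX and lower without, and 8 the reverse. AT3G22490, a seed maturation protein gene, read 7.61, 6.33 and 6.59 with DEX and 8.34, 8.08 and 7.84 with both (log2 change 1.24, SE 0.44; limma adjusted p = 0.0465), and 7.66, 8.04 and 7.05 with neither and 5.12, 5.26 and 5.47 with CHX (log2 change -2.30; limma adjusted p = 0.00122). Its difference of 3.54 missed the threshold (SE 0.62; limma adjusted p = 0.128), and its rise with DEX lost the call in 13 of 22 alternatives. AT5G45690 had a change of 0.95 with DEX and -1.64 without, and the tetraspanin gene TET4 one of 1.40 and -1.44. AT1G27461 had changes of 1.0 and -1.51, with a difference of 2.50 that missed the threshold (SE 0.35; limma adjusted p = 0.0745). Of the reverse kind, AT1G66020 had changes of -2.17 with DEX and 2.48 without, and AT3G51710, at the floor on all arrays with neither compound, -2.17 and 2.05; these differences missed the threshold too (limma adjusted p = 0.251 and 0.133). TET4, AT1G27461, AT1G66020 and AT3G51710 lie outside the naming rule and were chosen with their values known.

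**Figure D5:**
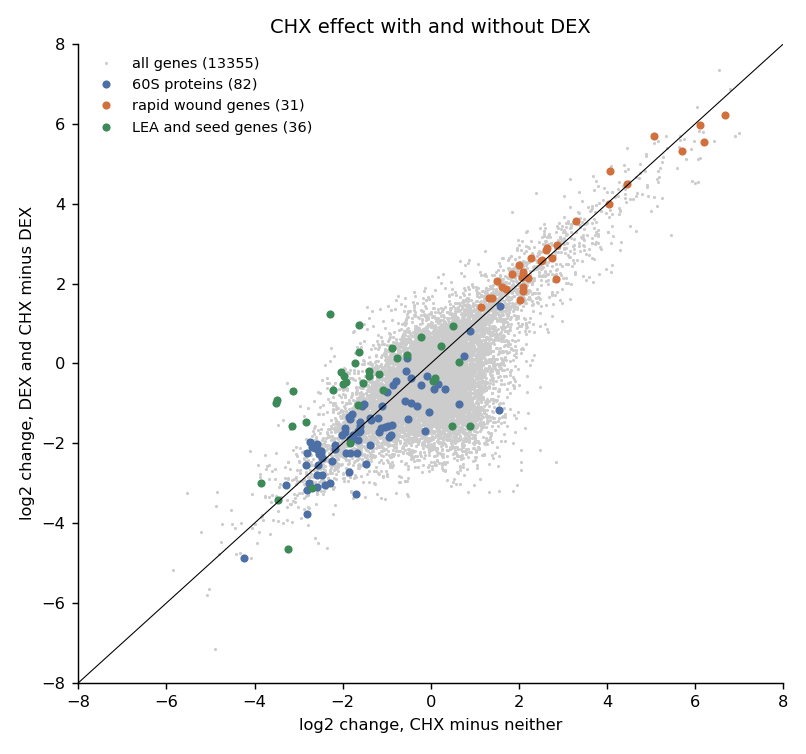
Log2 change with CHX in cells given DEX (vertical) against that in cells without DEX (horizontal) for 13355 genes (grey), with 60S proteins in blue, rapid wound and elicitor genes in orange and LEA and seed genes in green; the line marks equal change. The wound genes and most 60S genes lie along the line, and 28 of the 36 seed genes lie above it.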

How the data were processed

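The deposited values are linear intensities, 1 per probe set and array, of biotin-labelled total RNA on Affymetrix Arabidopsis arrays (NuGEN labelling, per the labels' protocols). The authors' values had the same mean on all 12 arrays after trimming 2% from each end, as read from the values; no source used here names the software. Intensities under 16 were set to 16 before log2. Of 22810 probe sets, 13513 had 1 gene in the annotation used here, 503 several and 8730 none; 13436 matched the TAIR10.1 gene table. The probe set of highest mean over the 12 arrays stood for a gene. The annotation names no probe set for ABI3, whose level is not reported, and no sequence is printed.

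The 12 arrays were fitted together as 4 group means (R 4.3.3, limma 3.58.1: lmFit, then eBayes with trend); the contrasts were CHX with DEX, CHX without DEX and their difference, each two-sided. Tables and figures used Python 3.11.15, pandas 2.3.3 and matplotlib 3.10.9. Named genes are the 15 largest rises and 15 largest falls past the threshold without overlap and above the floor, up to 5 bounds each way, up to 5 differences each way, and per list up to 4 members in the direction of most calls and 2 in the other (2 of highest mean if none passed), with exceptions named; lists of fewer than 4 measured genes are not described, apart from the tissue check and ORA47 and STZ, which were set beside the rapid genes. Members and lists were chosen with earlier results of these data known, and lists were completed by locus from general knowledge after the annotation had been read. The comparison was tested on simulated data: with 22746 probe sets, 14 of 100 changed 2-fold and 51 of 100 changed 4-fold were recovered, and 2 of 22546 unchanged ones were called. The changed probe sets were a far smaller share there than the 31% called here. The adjustment of p-values depends on that share, so the recovery rates do not describe this comparison. Alternatives were 2 other scalings, a floor of 64, a pseudocount of 1 without floor, a filter on a mean above 6, no variance trend, array weights, only the 6 arrays compared, a replicate block, a minimum change of 2-fold and leaving out arrays 1 at a time. The same fit of 6 arrays for CHX without DEX was added after seeing the data.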

Additional observations from a re-analysis of the deposited data

Results flagged for a closer look

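The probe set 260716_at was picked out because CHX lowered it by different amounts with and without DEX, a difference of 2.75 on the log2 scale (SE 0.30; limma adjusted p = 0.015). A further 3 named genes were picked out because all 3 arrays with CHX lay on one side of the matching arrays with DEX and on the opposite side without DEX. AT1G23280 changed by -2.31 with DEX and 0.67 without (difference -2.98; limma adjusted p = 0.358). AT3G22490 changed by 1.24 with DEX and -2.30 without (difference 3.54; limma adjusted p = 0.128). AT5G45690 changed by 0.95 with DEX and -1.64 without (difference 2.59; limma adjusted p = 0.0841). For these 3 the test of the difference itself missed the threshold. Groups of 3 arrays are too small for a test of single outlying arrays, so none was made.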

How the results depend on the processing

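The count of 7045 probe sets for CHX with DEX stayed within 1.5 times in each of 22 alternatives, and ran from 5878 to 7949 with 1 array left out, the highest without replicate 2 of DEX and CHX (2402 higher, 5547 lower) and the lowest without replicate 2 of DEX (2250 higher, 3628 lower). The count of differences between the CHX effects, 1 in the fit as reported, was 12 after quantile normalization, 7 after centring, 5 without a floor, 15 with only probe sets of mean above 6, and 0 with a floor of 64, without the variance trend or with the replicate block; it ran from 0 to 15 with 1 array left out, and the cause was not tested. With replicate number as a block, 6538 probe sets were called with DEX (2291 higher, 4247 lower) and 5786 without. Same-numbered arrays of the groups compared correlated in their deviations at 0.122, 0.294 and 0.068, and arrays of different number at -0.226 to 0.12. The labels state no pairing, so the main fit used none, and these values do not exclude it. Of 139 named genes, 106 kept direction and call in all alternatives and 30 lost the call in at least 1; none reversed. Medians that turned sign after centring were those of LEA and seed genes (0.0395), ER chaperones (0.149), core histones (0.0163), plastid genes (0.0983), mitochondrial genes (0.2682), U-box and ATL ligases (-0.14 to 0.35) and expansins and other wall genes (-0.39 to 0.10). With 1 array left out, medians of both signs were found for mitochondrial genes (from -0.4723 without replicate 2 to 0.0829 without replicate 3 of DEX and CHX), the ligases (from -0.3136 without replicate 3 of DEX to 0.2301 without replicate 1 of DEX and CHX) and the wall genes (from -0.8862 without replicate 2 of DEX and CHX to 0.1893 without replicate 2 of DEX). Centring moves every gene by the same amount, so the sign of the medians that turned with it depends on the scaling. The cause of the shift was not tested. Probe sets were also put in 5 equal bins by their mean level in the other 6 arrays, 3 of which had CHX alone. The median standard error was 0.621 in the lowest bin and 0.216 in the highest. The share called was 0.813% higher and 4.13% lower in the lowest bin, and 30.6% and 33.6% in the highest. A probe set that CHX raises without DEX is placed higher by that rise. The shares called therefore depend in part on the binning.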

Other observations

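Gene families grouped by the stem of their symbol, and chosen after their values were seen, gave the following values for CHX in cells given DEX. Among all genes, 9.67% were higher and 17.9% lower. Of 14 SWEET genes, which encode sugar transporters, 3 were higher and none lower: SWEET8 went from a mean log2 level of 6.56 to 11.98 (log2 change 5.42, SE 0.42), with SWEET16 at 3.54 and SWEET1 at 1.58. Of 26 genes with CYP symbols, nearly all for cytochrome P450 enzymes (CYP71 is a cyclophilin), 6 were higher and 1 lower, led by CYP84A4 at 4.29 and CYP71B24 at 3.14. Tetraspanin genes, whose products organise membrane patches, ran both ways: TET9 had a change of 5.19 and TET6 one of -3.82, each with nearly the same change without DEX (4.88 and -3.82). Of 20 BGLU genes 5 were higher, among them BGLU27 at 4.83, and 3 lower, among them BGLU25 at -2.36.

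Of 29 SCPL genes, for serine carboxypeptidase-like proteins, 7 were lower and none higher, led by scpl48, from 13.03 to 9.68 (log2 change -3.35, SE 0.17), and SCPL49 at -2.94. Of all genes 17.9% were lower, and the SCPL median of -0.40 (0.09 after centring) was no lower than that of all genes. Of 7 genes for ATG8, the ubiquitin-like protein of autophagosomes, 4 were lower: ATG8B changed by -2.30, ATG8D by -1.24, ATG8H by -1.10 and ATG8F by -1.0. The other 3 did not pass, with ATG8C at 0.022, ATG8E at 0.31 and ATG8G at 0.38. The median of all genes was -0.45, and falls of that size turn with the scaling.

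The 100 brightest probe sets held 13.4%, 12.5% and 13.8% of the summed intensity on the arrays with DEX and 17.7%, 16.4% and 20.3% on those with DEX and CHX. Probe sets above 13 on the log2 scale numbered 259, 217 and 275 against 496, 461 and 531. The groups did not overlap in either measure.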
